A study of Homo sapiens with 6 samples.

Results

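Open chromatin near the ends of the human autosomes was followed in H1 pluripotent stem cells with and without hairpins against HNRNPU. A summit, the base of strongest signal within a called peak, was taken when it lay within 2 Mb of an end of chromosomes 1 to 22, by the chromosome lengths of GRCh38. The short arms of the 5 acrocentric chromosomes 13, 14, 15, 21 and 22 were left out, which gave 39 chromosome ends and 2.71% of the autosomes' length. Of 356720 summits in the 6 libraries, 15578 (4.37%) lay there. Summits of different libraries within 250 bp were joined into loci, which gave 5240 subtelomeric loci of 123131 in all (4.26%). The ends held the midpoints of 1369 protein-coding genes.

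A chromosome ends in telomere repeats, which the shelterin proteins cover and telomerase extends in stem cells. The subtelomere on their inner side begins with blocks of sequence that several chromosome ends share, and passes into single-copy DNA that on many arms is rich in genes and in G and C. HNRNPU, also called SAF-A, is an abundant nuclear protein that binds RNA and chromatin and is a component of the nuclear matrix.

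The libraries were made by ATAC-seq, for which the Tn5 transposase cuts exposed DNA and adds the sequencing adapters. H1 is an established line of human embryonic stem cells, here kept in mTeSR1 on Matrigel. It received a lentiviral short hairpin RNA against HNRNPU (shHNRNPU #1 or shHNRNPU #2) or against luciferase (shLUC), made in 293T cells, and infected cells were selected with puromycin. There were 2 libraries for each of the 3 hairpins, numbered as repeats 1 and 2, so shHNRNPU had 4 libraries and shLUC 2. All 3 groups shared the line, the virus and the puromycin selection, and no library of cells without a hairpin was analysed. The labels do not say that repeats were separate cultures, so a p-value here measures only the spread between these libraries. The files hold summits and no reads: the sequencing depth and the knockdown itself are unknown, and a place without a summit was not called, which does not make it closed. HNRNPU, 4.09 Mb from the end of 1q and so outside the windows, had 2 or 3 summits in or near the gene in each library. The pluripotency genes POU5F1, SOX2, NANOG, LIN28A and SALL4 had a summit in 6 of 6 libraries.

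The strongest subtelomeric loci lay at the starts of genes, and 6 start windows are printed because they hold those loci or lie where the calls of the groups differed. Each runs from 250 bases before to 50 bases after a RefSeq start, in the sense of the gene, on GRCh38.p14. Capitals mark the GC box, written GGGCGG or CCGCCC so that both strands are covered, and boxes may overlap. DYNC2I1, a component of the dynein that works in cilia, has a start at chr7:158856308-158856607 on the plus strand, inside the gene. The long noncoding RNA LOC124901796 starts there too, 15 bp from the centre of the locus. LINS1 lies at chr15:100602135-100602434 on the minus strand. UVSSA, a factor of transcription-coupled DNA repair, lies at chr4:1346958-1347257 on the plus strand, and MAML1, a coactivator of Notch signalling, at chr5:179732572-179732871 on the plus strand. NME3, a nucleoside diphosphate kinase, at chr16:1771494-1771793, and MRPS34, a protein of the mitochondrial ribosome, at chr16:1773085-1773384, are neighbours on the minus strand and were chosen after their values were seen.
DYNC2I1: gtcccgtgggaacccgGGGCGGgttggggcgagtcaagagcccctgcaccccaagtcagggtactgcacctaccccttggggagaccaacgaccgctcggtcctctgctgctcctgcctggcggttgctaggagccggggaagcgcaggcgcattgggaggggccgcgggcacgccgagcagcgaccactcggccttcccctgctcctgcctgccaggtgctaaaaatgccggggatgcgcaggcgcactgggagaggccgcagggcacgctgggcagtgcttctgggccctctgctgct
LINS1: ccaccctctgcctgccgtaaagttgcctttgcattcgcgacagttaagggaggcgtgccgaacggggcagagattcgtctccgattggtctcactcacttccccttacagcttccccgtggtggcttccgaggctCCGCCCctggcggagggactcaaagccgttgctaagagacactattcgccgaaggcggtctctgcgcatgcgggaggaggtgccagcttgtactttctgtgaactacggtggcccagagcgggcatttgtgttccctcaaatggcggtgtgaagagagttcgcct
UVSSA: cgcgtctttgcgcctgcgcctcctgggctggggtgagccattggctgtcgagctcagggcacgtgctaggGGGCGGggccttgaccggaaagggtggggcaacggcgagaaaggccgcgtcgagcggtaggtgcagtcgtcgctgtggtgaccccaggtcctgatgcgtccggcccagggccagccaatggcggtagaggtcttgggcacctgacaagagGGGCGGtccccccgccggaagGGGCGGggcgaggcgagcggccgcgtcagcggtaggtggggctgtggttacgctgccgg
MAML1: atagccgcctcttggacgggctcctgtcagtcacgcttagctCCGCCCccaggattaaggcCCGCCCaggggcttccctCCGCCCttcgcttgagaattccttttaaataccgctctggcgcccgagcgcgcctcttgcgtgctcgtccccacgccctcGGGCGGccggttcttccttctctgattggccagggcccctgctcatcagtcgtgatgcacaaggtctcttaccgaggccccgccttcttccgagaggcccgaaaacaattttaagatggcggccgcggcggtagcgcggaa
NME3: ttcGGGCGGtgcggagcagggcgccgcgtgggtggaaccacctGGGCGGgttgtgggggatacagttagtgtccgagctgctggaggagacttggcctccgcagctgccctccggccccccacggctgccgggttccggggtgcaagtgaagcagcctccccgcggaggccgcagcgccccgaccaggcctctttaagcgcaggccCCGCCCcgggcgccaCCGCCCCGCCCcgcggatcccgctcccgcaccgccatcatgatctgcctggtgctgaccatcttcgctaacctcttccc
MRPS34: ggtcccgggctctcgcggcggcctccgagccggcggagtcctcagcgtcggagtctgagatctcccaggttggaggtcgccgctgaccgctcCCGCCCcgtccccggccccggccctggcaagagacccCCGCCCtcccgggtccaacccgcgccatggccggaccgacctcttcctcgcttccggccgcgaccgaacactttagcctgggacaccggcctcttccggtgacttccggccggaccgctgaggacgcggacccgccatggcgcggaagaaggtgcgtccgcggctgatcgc
The windows held 1, 1, 3, 4, 5 and 2 GC boxes in that order.

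The first 4 of these windows each held a summit in all 6 libraries. Scores below are the −log10 q-values of the peak caller, which rank summits within a library and are not comparable between libraries as levels. At DYNC2I1 the scores were 87.7 and 92.9 with shHNRNPU #1, 72.8 and 87.3 with shHNRNPU #2, and 79.1 and 73.3 with shLUC, and the summit fell on one base, at -51 from the start, in all libraries but shHNRNPU #1 repeat 1. LINS1 scored 125, 119, 85.5 and 114 with shHNRNPU and 84.3 and 68.7 with shLUC. UVSSA scored 91.6, 76.1, 68.6 and 76.4 with shHNRNPU and 66.5 and 62.7 with shLUC. In each library these summits were among the best-scored of its list. MAML1 scored 78.3, 94.5, 65.5 and 79.5 with shHNRNPU and 60.8 and 82.0 with shLUC. The fifth of the strongest loci lay 333 bp from an end of P4HB, a protein disulfide isomerase of the endoplasmic reticulum on 17q, with scores of 68.8 to 79.2 with shHNRNPU and 63.1 and 66.0 with shLUC.

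All start windows of the reference table that fell at chromosome ends numbered 1272, of which 349 (27.4%) held a summit in all 6 libraries and 545 (42.8%) in none. In the rest of the autosomes these were 27.2% and 42.3% of 19884 windows, so starts near chromosome ends were called open about as often as others. The windows at ends were richer in G and C, with a median of 69% against 62% elsewhere, and a GC box was present in 68.5% of them against 55.8% of the others and 56.6% of all 21156. Windows with a summit in all 6 libraries held a GC box in 88.5% of cases at ends and 77.7% elsewhere, and windows with none in 43.5% and 30.9%. The telomere repeat unit TTAGGG, or CCCTAA on the other strand, was in 6.29% of the windows at ends and 9.09% of the others.

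The first question was whether the ends took a larger part of a library's summits when HNRNPU was targeted. With shHNRNPU #1, 2734 of 59055 summits (4.63%) and 2931 of 63519 (4.61%) lay at ends. With shHNRNPU #2 these were 2510 of 58414 (4.30%) and 2457 of 52168 (4.71%). With shLUC they were 2440 of 62191 (3.92%) and 2506 of 61373 (4.08%). Each of the 4 shHNRNPU values exceeded both shLUC values. The share was 4.56% ± 0.182 (SD, n = 4) with shHNRNPU against 4.00% ± 0.113 (SD, n = 2) with shLUC, a difference of 0.559 percentage points and a ratio of 1.14 (two-sided exact permutation test over the 15 choices of 2 libraries, p = 0.13, the smallest it can give, and 0.311 after Benjamini-Hochberg adjustment over 7 tests). The design of 4 against 2 libraries therefore cannot reach 0.05. Each hairpin gave this direction, by 0.619 points for shHNRNPU #1 and 0.50 for shHNRNPU #2. The 95% Wilson interval of the lowest shHNRNPU library, shHNRNPU #2 repeat 1, was 4.14% to 4.46% and met that of shLUC repeat 2, 3.93% to 4.24%, and such intervals cover counting error only. The plain number of summits, 2658 ± 218 (SD, n = 4) and 2473 ± 46.7 (SD, n = 2), did not separate the groups (two-sided exact permutation test, p = 0.267). The shift was of like size in stronger and weaker peaks: the ratio was 1.148 among summits above the median score of their library and 1.13 among those below.

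The share of summits in gene-dense interior windows was also higher with shHNRNPU. The 39 ends held a median of 29 protein-coding genes per 2 Mb, and 145 of the 1320 interior windows of 2 Mb held at least as many, a comparison chosen after the shares at ends were seen. Those gene-dense interior windows took 20.5% and 19.6% of the summits with shHNRNPU #1, 19.2% and 21.1% with shHNRNPU #2, and 17.7% and 18.3% with shLUC. The ratio of the group means was 1.12 there, beside 1.14 at the ends. The log2 ratio of the share at ends to the share in gene-dense interior windows was -2.14 ± 0.0345 (SD, n = 4) with shHNRNPU against -2.17 ± 0.0087 (SD, n = 2) with shLUC. The difference was 0.03 on the log2 scale, with 4 of 4 shHNRNPU libraries above both shLUC libraries (exact two-sided permutation test, smallest possible p = 0.13). It was 0.05 for shHNRNPU #1 and 0.01 for shHNRNPU #2. Chromosome 19, the most gene-dense autosome, also took more of the summits with shHNRNPU, 4.05% ± 0.171 (SD, n = 4) against 3.49% ± 0.128 (SD, n = 2). What part gene density or base composition has in the share at ends was not tested.

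**Figure D1:**
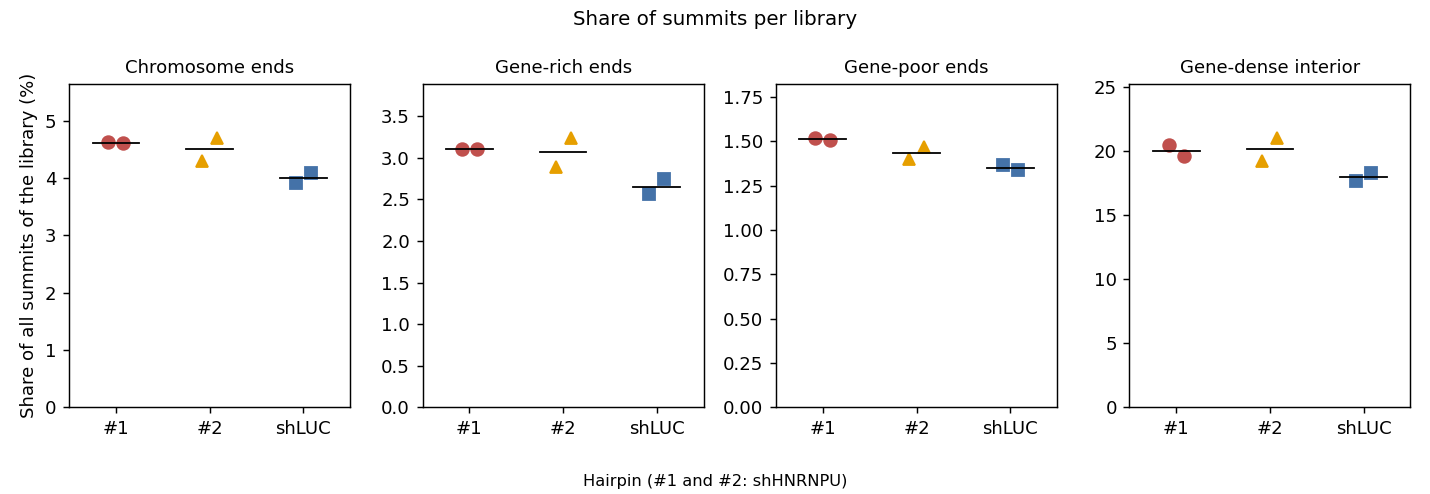
Each point is the percent of a library's summits in a class of windows (y axes from 0 and scaled by panel), with hairpins on the x axis and a bar at the mean of the 2 libraries. At all ends, at the 21 gene-rich ends, at the 18 gene-poor ends and in gene-dense interior windows the 4 shHNRNPU libraries sit above both shLUC libraries.

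Ends were next compared one by one. The share of a library's summits at an end was higher with shHNRNPU, in each of 4 libraries above both of shLUC, at 19 of 39 ends (48.7%) and lower at 1, where such windows made up 16.0% (higher) and 24.2% (lower) of the 1320 interior windows. Of the 145 gene-dense interior windows 54.5% were higher and 1.38% lower, so the count at ends was between the background of the whole interior and that of its gene-dense part. Split by gene number, a split made after the values were seen, 14 of the 21 ends with 29 or more genes and 5 of the 18 others were higher, beside 11.2% of the other interior windows. Lower were 0 of those 21 ends and 1 of those 18, beside 27.0% of the other interior windows. The share over the gene-poor ends alone was 1.47% ± 0.0528 (SD, n = 4) with shHNRNPU against 1.35% ± 0.0171 (SD, n = 2) with shLUC, a ratio of 1.09, and over the gene-rich ends the ratio was 1.16. Of the 17 short-arm ends 8 were higher, and of the 22 long-arm ends 11.

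The largest difference between the mean shares was at 19p, the end with most genes (112) and most loci (221). It held 139 and 137 summits with shHNRNPU #1, 112 and 122 with shHNRNPU #2, and 98 and 106 with shLUC, and the ratio of mean shares was 1.33. The lowest shHNRNPU share, 0.192%, lay above the higher shLUC share, 0.173%. At 17p, where the dosage-sensitive gene YWHAE lies, the libraries held 85, 92, 73 and 73 summits with shHNRNPU and 56 and 73 with shLUC. The shares did not overlap there, with a ratio of 1.32, although the lowest counts were equal to the higher shLUC count. At 1p there were 71, 83, 69 and 66 summits with shHNRNPU and 55 and 62 with shLUC, a ratio of 1.31. The ratios at 11p, 20q and 9q, the other ends among the 6 with the largest separated differences, were 1.24, 1.19 and 1.19. The 5 ends with most loci were 19p, 20q (209), 16p (199), 8q (198) and 17q (195), and 16p, which carries the alpha-globin genes, was the only one of them where the groups overlapped.

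The end that went the other way was 3p. It has 4 protein-coding genes, among them the neural adhesion genes CHL1 and CNTN6, and held 18, 21, 18 and 12 summits with shHNRNPU and 29 and 25 with shLUC, a ratio of mean shares of 0.672. Its 54 loci were the fewest of any end, together with 14q, and 4 of them (7.41%) had a summit in all 6 libraries, the lowest share of all ends. The next fewest were at 4q (55), 1q (61) and 18p (64), where the groups overlapped and the ratios were 0.944, 0.950 and 0.906, and they overlapped at 14q as well, with a ratio of 1.17. At 19q, named after its values were seen, 66 of 93 loci (71.0%) had a summit in all 6 libraries, the highest share of the 39 ends, and 0 loci were lost or gained there.

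**Figure D2:**
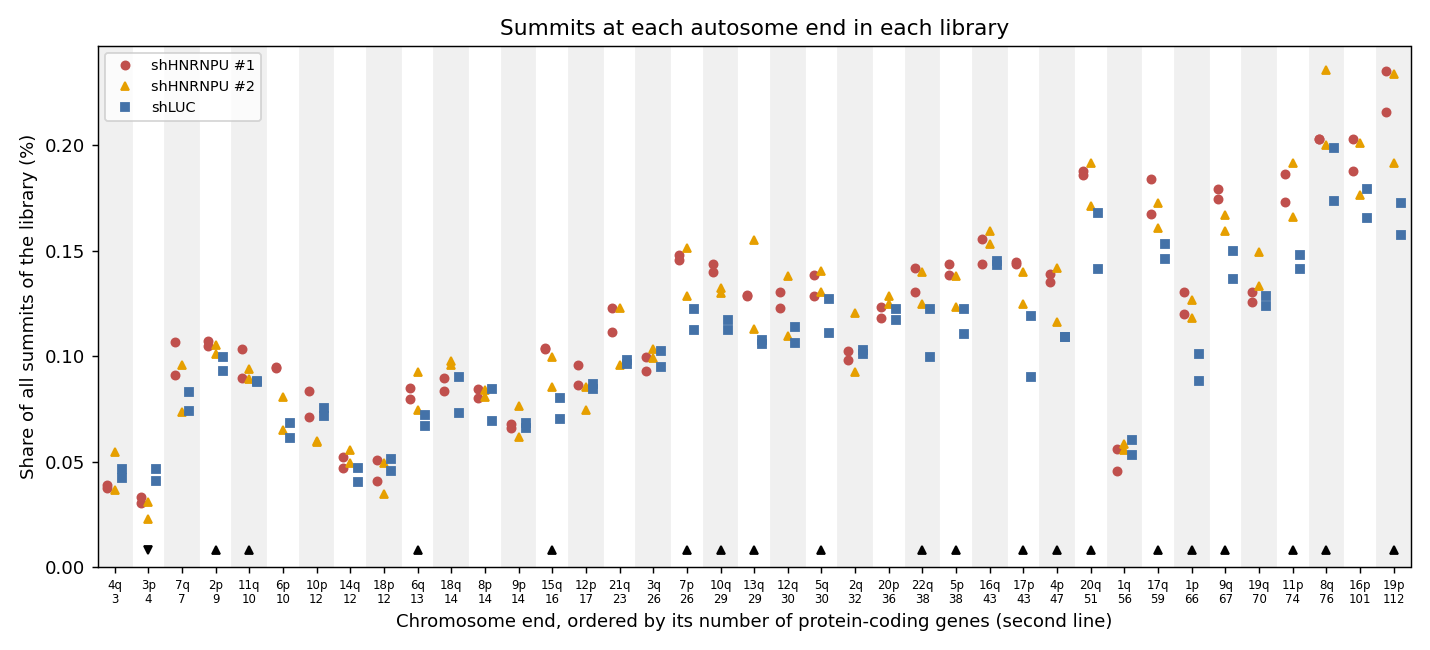
Percent of each library's summits (y axis) at each of the 39 autosome ends, ordered by the number of protein-coding genes printed under its name, with one point per library. Black triangles at the bottom mark the 19 ends with a higher share in all shHNRNPU libraries and, pointing down, 3p with a lower one.

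The distance from the chromosome end was then examined. The outermost 100 kb held 66, 66, 61 and 67 summits with shHNRNPU and 70 and 80 with shLUC over the 39 ends together, the fewest of any step in each library but shLUC repeat 2, which had 71 in the next one, and the counts reached 124 to 164 per library between 300 and 400 kb. In 17 of the 20 steps of 100 kb, each shHNRNPU library had more summits per 1000 than either shLUC library. The outermost step was the one in which the mean was lower with shHNRNPU, 1.12 ± 0.114 (SD, n = 4) against 1.21 ± 0.126 (SD, n = 2) per 1000 summits, and there the libraries overlapped. Within 50 kb, a distance looked at after the counts were seen, there were 21, 22, 20 and 24 summits with shHNRNPU and 27 and 34 with shLUC. The summit nearest to an end lay 10.1 to 11.04 kb from it in every library, beyond the unread bases with which the assembly closes many arms. The part of end summits within 500 kb was 19.9% ± 0.472 (SD, n = 4) with shHNRNPU against 20.6% ± 0.469 (SD, n = 2) with shLUC (two-sided exact permutation test, p = 0.267). In each of the 4 zones of 500 kb the share of all summits was higher in the 4 shHNRNPU libraries, with ratios of 1.10, 1.14, 1.18 and 1.13 from the outside in.

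**Figure D3:**
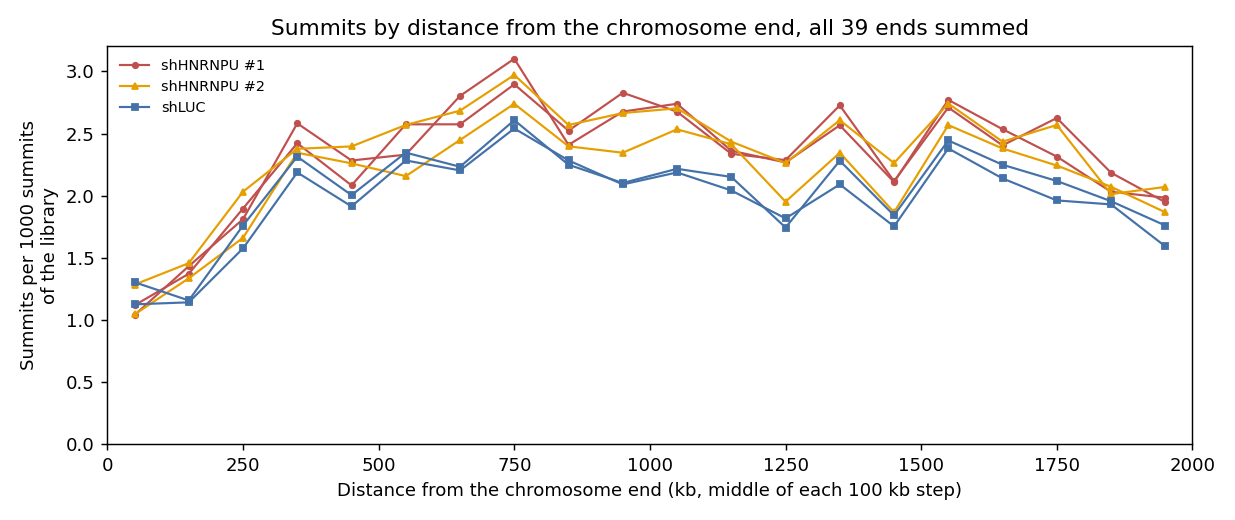
Summits per 1000 summits of the library (y axis) in steps of 100 kb from the chromosome end (x axis, kb), summed over 39 ends, with one line per library. The shLUC lines run lowest in most steps and are not the lowest in the outermost step, where shHNRNPU libraries lie between 1.04 and 1.28.

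Single loci were compared by presence. Of the 5240 subtelomeric loci, 1924 (36.7%) had a summit in 1 library and 1175 (22.4%) in all 6. These shares were 38.2% and 20.6% of the 114998 loci elsewhere on the autosomes, and 28.4% and 29.7% in gene-dense interior windows. Near a gene end, that is within 2000 bp of where a protein-coding gene starts or stops, lay 33.5% of the loci at chromosome ends. Elsewhere on the autosomes 20.03% did, and in gene-dense interior windows 39.4%. Loss meant a summit within 250 bp in both shLUC libraries and in 0 of the 4 with shHNRNPU, and gain meant the reverse. Of the 1737 subtelomeric loci present in both shLUC libraries, 64 (3.68%) were lost, where 5.68% of all such loci were. Of the 1436 present in all 4 shHNRNPU libraries, 62 (4.32%) were gained, where 3.59% of all such loci were. Loss was thus less frequent at ends than in the genome as a whole, and gain somewhat more frequent.

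Against the rest of the autosomes, the lost share was lower by 2.05 percentage points at ends (3.68% and 5.73%). For the other 14 choices of a control pair this difference was between -1.07 and 1.40 points (exact one-sided permutation test, p = 0.067, which is the lowest it allows, and 0.233 after Benjamini-Hochberg adjustment over 7 tests). The gained share was higher by 0.754 points (4.32% and 3.56%), and between -1.18 and 0.412 for the other choices (one-sided exact permutation test, p = 0.067, adjusted 0.233). The side of each one-sided test was the direction seen in the data, which makes its p-value smaller than a two-sided one. The adjustment over 7 tests mixed one-sided and two-sided p-values. With summits matched within 100 bp the gained difference turned to -0.274 points. It shrank to 0.187 points when called loci with a lacking-group summit within 1000 bp were left out (one-sided exact permutation test, p = 0.13). The lost difference was then -2.75 points (one-sided exact permutation test, p = 0.067). In gene-dense interior windows 2.64% were lost. Against these the lost difference turned to 1.05 points, with the lost share higher at ends (one-sided exact permutation test, p = 0.2). The gained share in those windows was 3.54% and the difference 0.774 points (one-sided exact permutation test, p = 0.13, where the lowest possible is 0.067). The smaller loss at ends was thus seen against the whole interior and not against its gene-dense part.

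The counts rested on few libraries. Without shLUC repeat 1 there were 379 lost and 153 gained loci, and without shLUC repeat 2 there were 343 and 166, since 1 control library then decided. Leaving out shHNRNPU #2 repeat 1 raised the gained count to 110, and leaving out its repeat 2 to 105. A score of at least 5 left 31 lost loci. A summit of the lacking group lay within 1000 bp of 32 of the 64 lost and 25 of the 62 gained loci. When those were left out, 32 and 37 remained. Over all loci such a summit lay near 497 of 2372 lost and 360 of 1084 gained ones. In gene-dense interior windows these were 92 of 222 and 76 of 251. The lost and gained summits were weak ones: the median percentile of score within a library was 30.4 for lost and 39.2 for gained loci, and 76.1 for subtelomeric loci in all 6 libraries. In the rest of the autosomes these were 32.8, 37.8 and 76.0, so this was not particular to chromosome ends.

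Each hairpin taken alone gave more calls, with fewer libraries to agree. With shHNRNPU #1, 117 loci were lost (6.74%, background 10.4%) and 260 gained (12.8%, background 10.5%). With shHNRNPU #2, 141 were lost (8.12%, background 11.9%) and 155 gained (8.79%, background 7.79%). The lost share was below and the gained share above its background, that of all loci, for each hairpin. In gene-dense interior windows 5.93% were lost and 9.60% gained with shHNRNPU #1, and 6.81% and 7.03% with shHNRNPU #2. Both shares were thus higher at ends than in those windows for each hairpin. The comparisons of both hairpins used the same shLUC libraries.

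**Figure D4:**
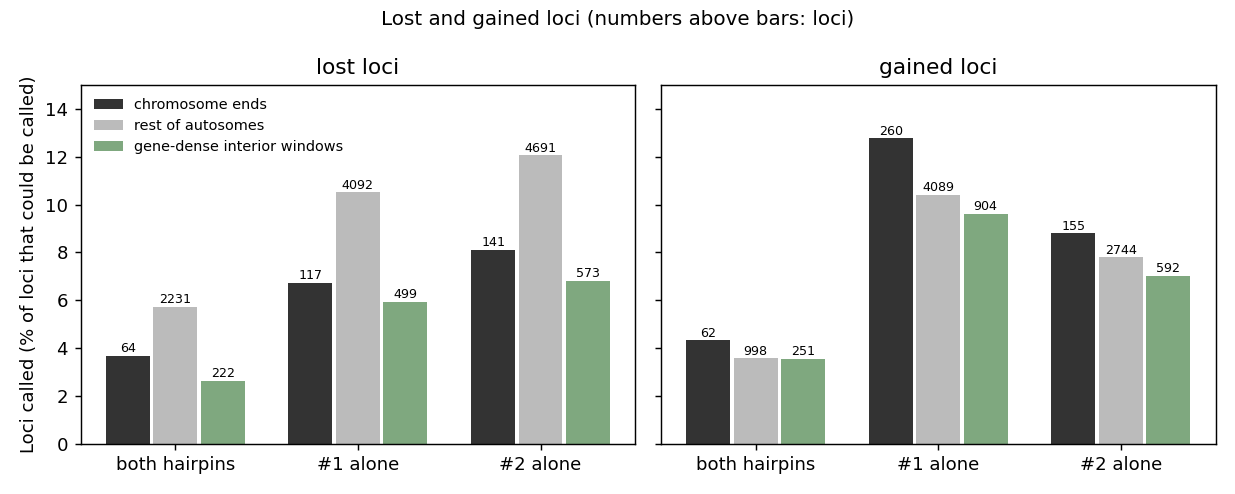
Percent of loci called lost (left) or gained (right) of those that could be (y axis), for both hairpins together and each alone (x axis), at chromosome ends (black), in the rest of the autosomes (grey) and in gene-dense interior windows (green), with the number of loci above each bar. At ends 3.68% of loci were lost with both hairpins, between 2.64% in gene-dense windows and 5.73% in the rest.

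The clearest lost loci, with no shHNRNPU summit within 1000 bp and the highest scores, lay away from gene starts. The first was at position 905442 of chromosome 3, over the long noncoding RNA LOC107986059, with shLUC scores of 21.1 and 11.01 and the nearest shHNRNPU summit 7508 bp away. The nearest protein-coding gene was CNTN6, a contactin of neural cell contacts, 187582 bp away. Another 2 lay at 1090931 and 864983 of chromosome 18, nearest to ADCYAP1, which encodes the neuropeptide PACAP, with shLUC scores of 8.91 and 10.6, and 10.6 and 7.91. The fourth, at 241180683 of chromosome 2, was inside PPP1R7, a regulatory subunit of protein phosphatase 1, 2969 bp from an end of the gene, with scores of 13.1 and 7.06. The fifth, at 898526 of chromosome 2, lay 52323 bp from SNTG2, a syntrophin, with scores of 7.70 and 7.85. Both ends of chromosome 10 had 5 lost loci, the most of any end, and 3 of those on 10p lay inside DIP2C, at positions 436698, 437246 and 527036, with shLUC scores between 3.71 and 5.15 and 0 gained loci at that end. Of all 64 lost loci, 17 (26.6%) lay near a gene end, where 47.7% of the loci that could be lost did. Over all loci of the genome these shares were 10.5% and 32.3%, so the shortfall was not particular to chromosome ends.

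The clearest gained loci were inside genes or noncoding RNAs. The first, at 113179524 of chromosome 13, lay in PCID2, which acts in mRNA export, with scores of 11.5, 10.2, 8.19 and 12.4 in the shHNRNPU libraries and the nearest shLUC summit 25612 bp away. The second, at 1043816 of chromosome 4, was over the long noncoding RNA LOC105374343, with scores of 7.76, 16.3, 6.82 and 13.6. The others lay in DNAJB6, a co-chaperone on 7q (position 157387252), in PPP1R16A on 8q (144478095, 113 bp from an end of the gene), and in GAS6, a ligand of TAM receptor kinases on 13q (113837904). The nearest shLUC summits to these 3 were 6474, 5548 and 6183 bp away. The most gained loci at one end were 4, at 4p, 6p, 8q and 22q, and 4 ends had no call of either kind. Of all 62 gained loci, 24 (38.7%) lay near a gene end, where 51.3% of the loci that could be gained did. Over all loci of the genome these shares were 22.5% and 38.4%, so this shortfall too was not particular to chromosome ends.

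A few calls lay close to the assembly's ends. At 4q, a lost locus at position 190203760 lay 10.8 kb from the end, near the DUX4 genes, with shLUC scores of 5.07 and 6.82, and lost loci at 10q (133786596) and 7q (159335443) lay 10.8 and 10.5 kb from theirs. Sequence there is shared between chromosome ends, and how reads that match several places were treated is not given in the sources used here, so these positions are uncertain. At DYNC2I1 a lost locus of low score, 4.91 and 2.77 in the shLUC libraries, lay 27 bp from the upstream start of the gene. The summit at the printed start, 17262 bp from the nearest gene end, was among the strongest in all 6 libraries.

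Among the start windows at ends, 8 of 459 that had a summit in both shLUC libraries had none with shHNRNPU (1.74%), and 5 of 384 the reverse (1.302%). These were 1.34% and 1.27% in the rest of the autosomes. The windows that lost their summit were those of MAEA, NPDC1, OPCML, PGAP6, MRPS34, MZF1, NRSN2 and SCRT2, and those that gained one were LOC124900647, MCF2L, NME3, ARHGAP45 and SLC19A1. At NME3 the shHNRNPU summits lay at -58, -53, -26 and 27 bases from the start, with scores of 7.26, 8.27, 5.76 and 2.66, and the nearest shLUC summits were at -1704 and -1815 bases, minus standing for upstream. At MRPS34 the shLUC summits lay at -113 and -224 bases from the start, with scores of 6.64 and 7.81, while those of shHNRNPU lay at -264 to -257 bases, just outside the window, with scores of 16 to 22. The MRPS34 window was thus lost by a shift of the summit, and a summit stayed near its start in all libraries.

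Summits were then counted over whole genes with 2000 bp on each side, and neighbours closer than that share summits. Of the 1369 protein-coding genes at ends, 1147 (83.8%) had a summit in some library and 969 in all 6. Of 17757 protein-coding genes outside the ends, 87.9% had a summit in some library. Every shHNRNPU library had more summits than either shLUC library at 41 of these 1147 genes (3.57%), where 2.30% of all 17339 genes with a summit were. Every one had fewer at 25 (2.18%), where 3.26% of all genes were. The examples given here were chosen after the counts were made. SAMD11 on 1p had 4, 2, 4 and 3 with shHNRNPU and 0 and 1 with shLUC, and SFSWAP, a splicing regulator on 12q, had 7, 8, 7 and 5 against 4 and 4. SQSTM1, the autophagy receptor p62 on 5q, had 5, 5, 6 and 4 against 3 and 3. In the other direction, DOCK8, a guanine nucleotide exchange factor on 9p, had 3, 3, 3 and 1 with shHNRNPU and 5 and 5 with shLUC. COLEC12, a scavenger receptor on 18p, had 4, 4, 4 and 2 against 5 and 6. EME2, NME3 and MRPS34, all among the 41, lie next to each other and share the gained summit at NME3.

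Of 71 genes on lists chosen by function, 66 lay at ends and 58 of these had a summit in all 6 libraries. Of all 1369 protein-coding genes at ends, 969 did. STN1, TEN1, DNMT3L, IGF2 and MYT1L lay outside the windows. The number of summits was higher with shHNRNPU at 2 of the 66 (NFATC1 and SNTG2), lower at 2 (PHF10 and CNTN6), and did not separate the groups at the others. Of all 17339 genes with a summit, 2.30% were higher and 3.26% lower, so listed genes separated the groups about as often as genes in general. All 3 telomere maintenance genes at ends had a summit near a start in all 6 libraries. TERT, the reverse transcriptase of telomerase on 5p, had 1 and 1 with shHNRNPU #1, 2 and 2 with shHNRNPU #2, and 1 and 1 with shLUC. RTEL1, a helicase that unwinds telomeric structures, had 1 or 2 with shHNRNPU and 3 and 1 with shLUC. TELO2, which stabilises the kinases ATM and mTOR, had 1 in all libraries but shHNRNPU #2 repeat 2, which had 2.

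The list named for pluripotency or early embryo had 5 genes at ends. Of these, TRIM28, a corepressor of transposable elements, the E protein TCF3 and ZNF595 had a summit in all 6 libraries. UTF1, a chromatin factor of pluripotent cells on 10q, had 3, 1, 0 and 2 with shHNRNPU and 1 and 1 with shLUC. H19, the imprinted noncoding RNA on 11p, was the one listed gene with no summit in any library. Of 20 developmental regulators, 15 had a summit in all 6 libraries and 7 had one within 500 bp of a start in all 6, of 15 whose starts were in the reference table. NFATC1, a transcription factor of immune and heart valve development, had 5, 7, 7 and 8 summits with shHNRNPU and 4 and 4 with shLUC. FOXC1 had 2, 4, 1 and 3 against 0 and 2, and IRX4 had 4, 2, 3 and 2 against 2 and 0, so both overlapped. DMRT1, a sex-determination factor, had 9, 8, 7 and 7 against 6 and 8, and NOTCH1 had 1 or 2 against 3 and 2.

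Of 20 genes of chromatin and the nucleus, 19 had a summit in all 6 libraries. PHF10, a subunit of the BAF remodelling complex on 6q, had 2, 2, 3 and 3 with shHNRNPU and 4 and 4 with shLUC. EHMT1, a histone H3 lysine methyltransferase, had 9, 13, 8 and 7 against 6 and 7, which overlapped, and one of the gained loci lay inside it. SUN1, a protein of the inner nuclear membrane, had 4, 4, 5 and 5 against 4 and 3. BRD9, ANKLE2, MBD3, CTBP1 and NCAPD3 had 1 summit in each library. All 10 housekeeping genes had a summit in all 6 libraries, and RPL35A, POLR2E and RACK1 had 1 in each.

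Of the 8 long neural genes, PTPRN2 and DLGAP2 held more summits than any other listed gene. PTPRN2, a receptor-type phosphatase of secretory vesicles on 7q, had 36, 33, 24 and 32 with shHNRNPU and 26 and 28 with shLUC. DLGAP2, a scaffold of the postsynaptic density on 8p, had 26, 23, 23 and 22 against 18 and 27. SNTG2 had 10, 7, 5 and 5 against 4 and 4, while CNTN6 had 3 in each shHNRNPU library against 4 and 5. CHL1 had 4, 4, 4 and 2 against 7 and 2. Of these genes, SNTG2 was the one with more summits in every shHNRNPU library and CNTN6 the one with fewer.

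The position and strength of the end summits were compared last. Near gene ends lay 40.7% and 39.3% of the end summits with shHNRNPU #1, 42.1% and 43.4% with shHNRNPU #2, and 41.5% and 41.5% with shLUC. Both shHNRNPU #1 libraries were below and both shHNRNPU #2 libraries above the shLUC libraries, and the group means of 41.4% ± 1.75 (SD, n = 4) and 41.5% ± 0.0395 (SD, n = 2) did not separate (two-sided exact permutation test, p = 0.933). The sign of that difference changed with a score of at least 5 (0.315 points) and without either shHNRNPU #1 library (0.110 and 0.555 points). In the rest of the autosomes this part was 27.6% ± 1.66 (SD, n = 4) with shHNRNPU against 25.5% ± 0.382 (SD, n = 2) with shLUC, with all 4 shHNRNPU libraries higher. At ends, the added share of summits was seen both near gene ends, with a ratio of 1.14, and away from them, also 1.14. The number of start windows at ends with a summit did not separate the groups. Of 1272 windows, 520, 552, 513 and 567 had one with shHNRNPU and 549 and 539 with shLUC. The median percentile of score of the end summits was 50.9 ± 1.56 (SD, n = 4) with shHNRNPU against 50.1 ± 1.19 (SD, n = 2) with shLUC (two-sided exact permutation test, p = 0.667), and the difference of 0.803 turned to -0.0411 without shLUC repeat 1.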

How the data were processed

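The study deposited one list of summits for each of 6 ATAC-seq libraries, each summit 1 bp wide with a score. From the layout and values the deposited score is the −log10 q-value of MACS2. The submitters' processing notes name cutadapt, Bowtie2, SAMtools, MACS2 and deepTools and the build hg38, with no version or parameter; peaks were called per library, with no normalization between libraries. The article given with the series describes other libraries and served for style only.

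Members and gene lists were chosen with earlier results of these data known. Loci were built from the best-scored summit downwards by absorbing summits within 250 bp. Genes came from the RefSeq table of GRCh38.p14. Loci named were, lost and gained alike, the 5 with the highest lowest percentile among those with no lacking summit within 1000 bp. The 5 strongest in all 6 libraries were named too. Further loci, in DIP2C, at 4q, 7q and 10q, at the upstream DYNC2I1 start, at NME3 and in EHMT1, were named after their values were seen. Named ends were the 5 with most loci, the 5 with fewest and up to 6 that separated the groups most. Repeat numbers showed no consistent pairing of the libraries (correlations of repeat differences -0.249, -0.143 and 0.201). Whether repeats shared a batch was not tested. Scripts were tested on simulated data. Read depth is unknown, so no detection limit is given. Alternatives were score, list size, match distance, absence, window, gene distance, leaving out each library and a block. Python 3.11.15, scipy 1.17.1, numpy 2.4.6, statsmodels 0.14.6, pandas 2.3.3 and matplotlib 3.10.9 were used.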

Additional observations from a re-analysis of the deposited data

Results flagged for a closer look

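The part of end summits near gene ends moved in opposite directions with the 2 hairpins, by -1.48 percentage points for shHNRNPU #1 and by 1.24 points for shHNRNPU #2 relative to shLUC, with every library on the side of its hairpin. This difference between the hairpins was not tested.

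In 47 measures, 2 had a shHNRNPU library that stood apart from the other 3, and chance gives about 1 in 20, or 2.35 here. At 4q the share of summits was 0.0548% in shHNRNPU #2 repeat 1 and 0.0364% to 0.0389% in the others. At 8q it was 0.236% in shHNRNPU #2 repeat 2 and 0.200% to 0.203% in the others.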

How the results depend on the processing

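The results were recomputed under 16 settings planned at the outset and 1 chosen after seeing the data, the comparison with gene-dense interior windows, each setting for the results it bears on. Of 107 recomputed values 92 kept their direction, or for counts stayed within 1.5 times. The share of summits at ends stayed higher with shHNRNPU in all of its settings. It differed by 0.241 points within 1 Mb, 1.26 within 5 Mb and 0.479 to 0.648 when 1 library was left out, and the difference in number was 94.0 to 252 summits. Keeping scores of at least 5 gave 31 lost loci and turned the gene-end difference to 0.315 points. Absence judged within 1000 bp gave 32 lost and 37 gained loci and a gained difference of 0.187 points. A match within 100 bp turned the gained difference to -0.274 points. Against gene-dense interior windows the lost difference turned to 1.05 points. Leaving out 1 library gave 78 to 379 lost loci, 90 to 166 gained loci and 20 to 28 ends that separated the groups. It gave differences of -5.43 to -2.59 points for the lost share, 0.718 to 2.09 for the gained share, -0.794 to 0.555 for the gene-end share, -0.0411 to 1.65 for the median percentile and -1.06 to -0.393 for the outer share. The cause of these changes was not tested, except that fewer libraries make a lost or gained call easier to meet. The labels' repeat numbers showed no consistent pairing of the libraries. With a replicate block, permuting within repeats over 9 assignments, the differences stayed 0.559 points in share (exact permutation p = 0.222, the smallest possible), 185 in number, -0.121 in gene-end share, 0.803 in median percentile and -0.725 in outer share. No permutation here can reach 0.05, so p-values say nothing of stability. Without read depth, a missing summit may be a peak just under the caller's threshold.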
